A study of Mus musculus with 6 samples.

Results

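A set of genes that mark astrocytes and carry out their main tasks was followed in mouse cortex in which β-catenin had been stabilised in excitatory neurons. The 10 genes were chosen by name and were Slc1a2, Slc1a3, Aqp4, Gfap, Aldh1l1, Glul, Gja1, Gjb6, S100b and Aldoc. All 10 were found among the 47794 genes of the deposited table. Primary somatosensory cortex of C57BL/6 mice aged 14 days was measured by RNA-seq. The 3 control libraries came from mice with the β-cat lox(ex3) allele alone, in which exon 3 of the β-catenin gene Ctnnb1 is floxed. The 3 overexpression libraries came from mice with the same allele and Nex-Cre, written β-cat lox(ex3);Nex-Cre in the labels. Controls thus carried the floxed allele but no Cre. Nex-Cre is expressed from the locus of the neuronal gene Neurod6 and is used to recombine in excitatory neurons of the forebrain. Ctnnb1 itself averaged 6391 in overexpression against 7574 in control cortex, with p = 0.0304, adjusted to 1, in the authors' deposited table, a value that does not check the genotype, since the allele loses 1 exon and keeps the rest. Neurod6, the gene whose locus carries Nex-Cre, averaged 1199 in overexpression against 1942 in control cortex, a log2 ratio of -0.70. The authors' deposited table gives Neurod6 p = 5.04e-05, adjusted to 0.76. The labels do not say whether a library held 1 animal or a pool.

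Astrocytes take up the glutamate that neurons release, turn it into glutamine, buffer potassium and water, and feed neurons with products of glycolysis. They are joined into a network by gap junctions, and their endfeet cover blood vessels. In mouse cortex the second postnatal week is a time in which astrocytes mature while synapses form.

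The astrocyte genes had nearly the same levels in both groups. The deposited value of a gene is the mean over a group's 3 libraries of read counts that the authors had scaled for depth, and is called the mean below. For all 10 genes the group means lay less than 1.2-fold apart, and by the authors' deposited table none, 0 of 10, passed an adjusted p under 0.05. Over all 30152 genes tested there, 0 passed, which is 0%. At an unadjusted p under 0.05 the count was also 0 of 10, beside 0.534% of all tested genes in either direction and 0.206% in the lower direction, so the count does not set the 10 genes apart. The direction was upward for 3 genes and downward for 7, with a median log2 ratio of overexpression over control of -0.04. The same median was -0.03 over the 5103 tested genes averaging at least 800, a range that holds all 10 genes, and 31.7% of those were higher. In that range 0.627% of genes had means over 1.2-fold apart. In bulk tissue, fewer astrocytes and less RNA per astrocyte cannot be told apart.

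Stabilised β-catenin acts in the nucleus through TCF/LEF factors. Nex-Cre is used to recombine in excitatory neurons, and whether β-catenin changed in astrocytes was not tested. As a description of sequence only, the 250 bases before each RefSeq start site were searched for ACAAAG or TCAAAG on either strand. Those letters are the core that TCF/LEF factors bind, and they may overlap sites of SOX factors. The RefSeq windows used here covered 9 of the 10 genes, with 10 windows of GRCm38.p6. The letters stood in 2 windows, that of Slc1a2, at 2 places, and 1 of the 2 windows of Aldoc. Among all 32841 promoter windows of the same length 27.6% held them. Windows of 3 genes are shown, of the glutamate transporter with matches and of Gfap and Gjb6, which have none. Capitals mark the letters searched for. A match describes the letters only and is not a binding site.
Slc1a2 (chr2:102706188-102706437, + strand, GRCm38.p6): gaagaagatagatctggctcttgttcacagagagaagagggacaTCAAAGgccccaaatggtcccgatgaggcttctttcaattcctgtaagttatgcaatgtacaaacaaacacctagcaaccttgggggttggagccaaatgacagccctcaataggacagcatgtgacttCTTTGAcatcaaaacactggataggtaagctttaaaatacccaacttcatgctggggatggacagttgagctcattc
Gfap (chr11:102897201-102897450, - strand, GRCm38.p6): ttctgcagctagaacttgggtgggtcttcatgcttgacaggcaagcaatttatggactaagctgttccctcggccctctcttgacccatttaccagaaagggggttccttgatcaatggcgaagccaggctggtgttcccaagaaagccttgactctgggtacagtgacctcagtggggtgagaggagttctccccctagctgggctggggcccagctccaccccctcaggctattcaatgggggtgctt
Gjb6 (chr14:57133612-57133861, - strand, GRCm38.p6): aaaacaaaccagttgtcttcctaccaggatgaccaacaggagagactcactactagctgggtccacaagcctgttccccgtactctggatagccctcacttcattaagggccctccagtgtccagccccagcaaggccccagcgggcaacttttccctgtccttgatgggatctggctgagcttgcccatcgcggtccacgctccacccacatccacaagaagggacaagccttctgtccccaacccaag
The windows also differed in base composition. Slc1a2 had 44.8% G and C and 1 CpG, Slc1a3 44.8% and 2, and Glul 64.8% and 15, beside a median of 52.4% and 6 over all promoter windows. Starts of the 3 windows shown matched a GENCODE transcript start, and those of the other windows did not. All 250 bases of the Glul window lay in annotated exons, as did 136 bases of the Aldoc window with the letters. Such windows may not be promoter sequence.

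All 10 genes were well expressed in this tissue. By mean over both groups Slc1a2 was number 6 of all genes in the table and Glul number 71, while Gjb6, the lowest of the 10, was number 4713. Levels can be compared between genes only per length, so each mean was divided by the gene's exon length in the GENCODE vM21 annotation. Per kb of exon, control cortex had 6259 scaled reads of Glul, 5522 of Slc1a2, 3153 of Aldoc and 1325 of Slc1a3. The others followed with 901 for S100b, 643 for Gfap, 410 for Aqp4, 408 for Gja1, 343 for Gjb6 and 273 for Aldh1l1. The order of the 10 genes was the same in overexpression cortex, as the plot of levels per kb shows. Aqp4 and Gja1 were nearly level with each other in both groups. Exon length takes in all annotated isoforms, from 1 transcript for S100b to 12 for Slc1a2, so a gene with long rarely used exons ranks too low.

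**Figure D1:**
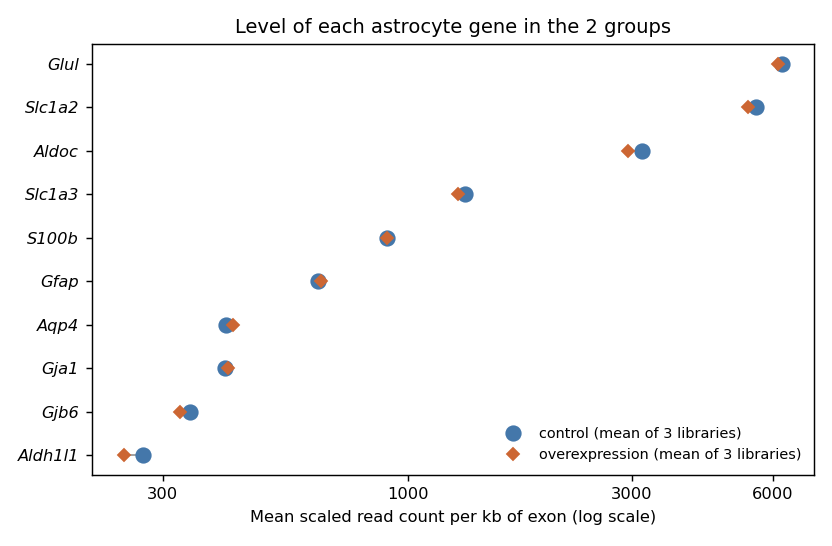
Mean scaled read count per kb of exon (log axis) of the 10 astrocyte genes in control (circles) and overexpression (diamonds) cortex, each symbol the authors' mean of 3 libraries. The symbols of each gene nearly coincide, from 6259 and 6154 for Glul down to 273 and 249 for Aldh1l1.

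The glutamate transporters differed little between groups. Slc1a2 (ENSMUSG00000005089), which encodes GLT-1, the transporter that clears most glutamate in the adult forebrain, averaged 69614 in overexpression against 72524 in control cortex. The log2 ratio was -0.06, and the authors' deposited table gives p = 0.578, adjusted to 1, as for each of the 10 genes. Slc1a3 (ENSMUSG00000005360), which encodes GLAST, the transporter that prevails earlier in development, averaged 10887 in overexpression against 11309 in control cortex. The log2 ratio was -0.05, and p = 0.61 by the authors' deposited table. The ratio of Slc1a2 to Slc1a3 does not depend on the scaling between groups, and per kb of exon it was 4.16 in overexpression against 4.17 in control cortex. The neuronal transporter gene Slc1a1 was far lower, and per kb of exon Slc1a2 exceeded it 23.6-fold in overexpression and 23.8-fold in control cortex. In Slc1a2, 1.31% of the 50-base words of its transcripts also stood in transcripts of other genes, mainly the antisense gene Gm13872, whose means were 3.81 and 2.87.

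Glutamate taken up is turned into glutamine by glutamine synthetase, encoded by Glul (ENSMUSG00000026473). Its mean was 20449 in overexpression against 20799 in control cortex, a log2 ratio of -0.02 with p = 0.789 in the authors' deposited table. Of its 50-base words 12.6% stood in other genes too, and 9.46% of all its words stood in the pseudogene Glns-ps1, which was listed at 0 in both groups. How the authors' counting treated reads that fit both was not stated. Glul also shares 3.49% of its exon bases with Teddm2 on the opposite strand, which had means of 46.2 and 53.6.

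The gap junction genes gave small differences of opposite sign. Gja1 (ENSMUSG00000050953), which encodes connexin 43, averaged 4248 in overexpression against 4182 in control cortex, a log2 ratio of 0.02 with p = 0.879 in the authors' deposited table. Gjb6 (ENSMUSG00000040055), which encodes connexin 30, averaged 873 in overexpression against 918 in control cortex, with a log2 ratio of -0.07. The authors' deposited table gives it p = 0.674. Per kb of exon, Gja1 stood at 1.27 times Gjb6 in overexpression and 1.19 times in control cortex. Whether the ratios differed between groups was not tested.

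Gjb6 was the only 1 of the 10 genes whose library values could be recovered from the group means. The worth of 1 read in each library can be read from the lowest values of the table, and a group mean up to about 1000 then often fits a single set of whole reads. Recovered libraries carry the letters A, B and C within each group, from the highest scaling factor to the lowest, and cannot be tied to a replicate number. Control libraries A, B and C had 1080, 783 and 732 reads of Gjb6, which scaled to 1100, 846 and 807. Overexpression libraries A, B and C had 1176, 895 and 792 reads, which scaled to 958, 842 and 819. Control A was the highest of the 6, and the groups overlapped. The scaled value was 918 ± 159 (SD, n = 3) in controls and 873 ± 74.4 (SD, n = 3) with Nex-Cre. The limma log2 difference was -0.06 with a 95% interval from -0.31 to 0.19 and an adjusted p of 0.999 over the 11437 recovered genes. The exact two-sided permutation test gave p = 0.8, where 3 against 3 libraries cannot go below 0.1. Without control A the difference was 0.0765 in place of -0.0608. The interval reaches from 1.24-fold lower to 1.14-fold higher. For Gjb6 in overexpression cortex the search took only library values within 1.5-fold of the mean, and with a 2-fold window more than 1 set of reads fitted.

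The astrocytic water channel, filament and calcium-binding genes also had close means. Aqp4 (ENSMUSG00000024411), the water channel of perivascular endfeet, averaged 2639 in overexpression against 2556 in control cortex, with a log2 ratio of 0.05 and p = 0.908 in the authors' deposited table. Gfap (ENSMUSG00000020932), the intermediate filament gene that rises in reactive astrocytes, averaged 2750 in overexpression against 2711 in control cortex, with a log2 ratio of 0.02. The authors' deposited table gives it p = 0.974. S100b (ENSMUSG00000033208), a calcium-binding protein gene that oligodendrocytes express as well, had means of 1336.9 in overexpression against 1337.6 in control cortex. Its log2 ratio, -0.000707, was the smallest of the 10, and 99.3% of genes averaging 100 or more had a larger one in either direction. None of these 3 genes shared a 50-base word with another annotated gene.

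The lowest ratios of the 10 genes were those of Aldh1l1 and Aldoc. Aldh1l1 (ENSMUSG00000030088), the folate enzyme gene used as a general astrocyte marker, averaged 1123 in overexpression against 1231 in control cortex. Its log2 ratio of -0.13 was the largest difference among the 10, with p = 0.264 in the authors' deposited table, and 17.9% of genes averaging 100 or more differed by more. Aldoc (ENSMUSG00000017390), the brain form of the glycolytic enzyme aldolase, averaged 9590 in overexpression against 10287 in control cortex. The log2 ratio was -0.10, and p = 0.367 by the authors' deposited table. Its widespread relative Aldoa had means of 15037 and 16363, a log2 ratio of -0.12, so the ratio of Aldoc to Aldoa per kb of exon was 0.569 in overexpression against 0.561 in control cortex. For Aldh1l1, 11% of the exon bases are shared with the antisense gene Gm15756, which had means of 0.617 and 1.44. The labelled library kit is not said to keep strand, so reads of such partners cannot be told apart.

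**Figure D2:**
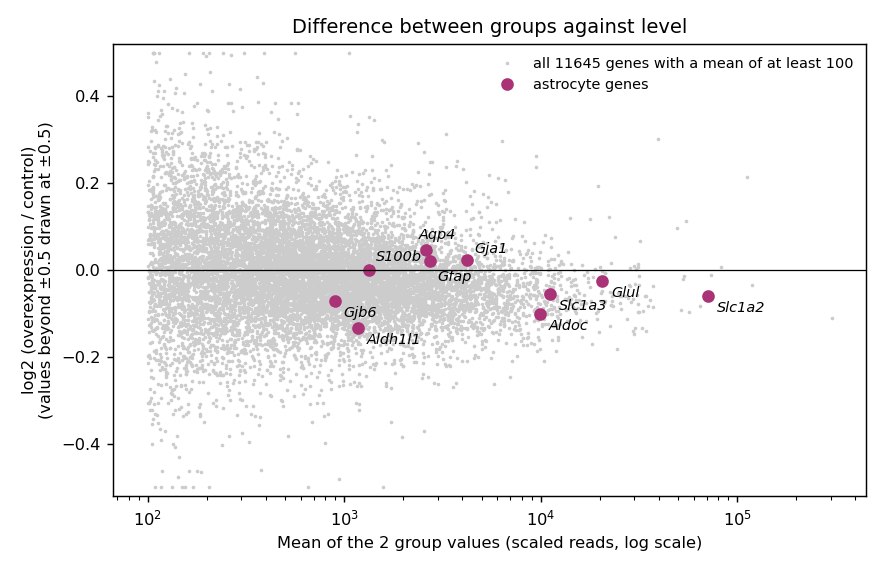
Log2 ratio of overexpression over control against the mean of both group values (log axis), for 11645 genes whose mean reached 100 (grey) and the 10 astrocyte genes (labelled). The astrocyte genes lie between -0.13 (Aldh1l1) and 0.05 (Aqp4), inside the cloud of genes of like level.

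Small ratios of this kind depend on the scaling. Together the 10 genes held 0.664% of all scaled reads in overexpression and 0.672% in control cortex. The group values summed to 18602579 in overexpression against 19016749 in control cortex, and dividing by these totals adds 0.0318 to every log2 ratio. On that scale 5 of the 10 genes were higher and 5 lower, with a median of -0.00792, and Glul and S100b changed sign. Aqp4, Gfap and Gja1 were higher, and Slc1a2, Slc1a3, Aldh1l1, Gjb6 and Aldoc lower, on both scales.

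Read number did not limit these comparisons, but the spread between libraries is known only for Gjb6. The group means stood on about 2583 reads for Gjb6 in control cortex up to about 226663 for Slc1a2 in overexpression cortex. For 6 of the 10 genes the 95% interval of the log2 ratio from counting error alone left out 0, as for Slc1a2, from -0.07 to -0.05. Libraries differ by more than counting error. In 2027 recovered genes averaging 400 or more the median SD between libraries was 0.115 on the log2 scale, and the median 95% interval of a difference reached 1.16-fold to either side. The largest difference among the 10 genes was 1.10-fold, for Aldh1l1, and 15.2% of those recovered genes had a larger one. The recovered genes above 400 were limited to libraries within 1.5-fold of the mean, so their spread may be understated.

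The rest of the astrocyte programme was measured with 141 further genes in 7 lists. The direction was upward for 63 and downward for 78. By the authors' deposited table none, 0 of 141, passed the adjusted threshold and 0 had p under 0.05 before adjustment. Over all tested genes the shares were 0% and 0.534%, so these counts do not set the 141 genes apart. Their median log2 ratio was -0.01, beside -0.02 over all tested genes averaging at least 100. Medians of the 7 lists ran from -0.04 to 0.03. With column totals as the scale 80 of the 141 were higher, and the medians of all 7 lists but that of ion and water handling were above 0. The 8 genes with a mean under 10 were all reactive genes.

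Among 14 genes of transmitter uptake and glutamate metabolism, 7 were higher and 7 lower, with a median of -0.02 and 0 past the threshold. Abat, which encodes the enzyme that breaks down GABA, averaged 6351 in overexpression against 6531 in control cortex. Slc6a11, the GABA transporter gene of astrocytes, was at 3091 in overexpression against 3063 in control cortex. The lowest ratio of the list was that of Grm3, a metabotropic glutamate receptor gene, with means of 1057 and 1271, a log2 ratio of -0.27 and p = 0.152 in the authors' deposited table. Slc6a11 and Grm3 are named after their values were seen, as are Kcnj10, Slc14a1, Slc39a12, Aldh1a1, Slc15a2, Fgfr3, Sox9, Zbtb20 and Neu4 below.

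Among 15 genes of ion and water handling, 6 were higher and 9 lower, with a median of -0.04. Atp1b2, which encodes a sodium pump subunit of astrocytes, averaged 11379 in overexpression against 11696 in control cortex, a log2 ratio of -0.04. Kcnj10, the potassium channel gene of astrocytes, was at 4081 in overexpression against 4185 in control cortex. Slc14a1, a urea transporter gene, had a log2 ratio of 0.33, with p = 0.144 in the authors' deposited table. Over all 47 recovered astrocyte genes outside the reactive list, the groups did not overlap in 1, beside 6.99% of all recovered genes.

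Among 25 genes of astrocyte metabolism, 9 were higher and 16 lower, with a median of -0.03. Apoe, the main lipid carrier gene of brain, averaged 19825 in overexpression against 20552 in control cortex, and Clu, another apolipoprotein gene, 9731 and 10639. Aldh1a1, an aldehyde dehydrogenase gene, had recovered values of 948, 795 and 670 in control libraries, against 605, 653 and 693 with Nex-Cre. The lowest control library was below the highest overexpression library, so the groups overlapped. By limma the log2 difference of Aldh1a1 was -0.29, with an adjusted p of 0.999. It was the only 1 of the 47 recovered genes with an unadjusted p under 0.05. Over all recovered genes 2.06% had one. That call was lost without control A, where the difference was -0.17, and also without control B, without overexpression A or with no variance trend.

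Secreted and phagocytic genes, 16 in all, had 4 members higher and 12 lower, with a median of -0.01. Sparcl1, which encodes the synapse-promoting protein hevin, averaged 30317 in overexpression against 32004 in control cortex, and Cst3, a secreted protease inhibitor gene, 8768 and 8943. Among 18 receptor and surface genes 8 were higher and 10 lower, with a median of -0.02. Ttyh1 averaged 10847 in overexpression against 10259 in control cortex, and Gpr37l1, an orphan receptor gene, 2901 and 3082. The highest ratio there was that of Slc15a2, a peptide transporter gene, with means of 413 and 303, a log2 ratio of 0.44 and p = 0.105 in the authors' deposited table. Fgfr3, a growth factor receptor gene, had a log2 ratio of 0.17, with p = 0.159 in the authors' deposited table.

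Lineage transcription factors were the 1 astrocyte list of the 7 with a median above 0, of 0.03. Of its 18 genes 13 were higher and 5 lower, with 0 past the threshold. With column totals 15 of the 18 were higher, and 5 other lists also had medians above 0. Column totals shift all lists alike, so this list kept the highest median of the 7, at 0.059. Tested genes averaging at least 100 had a median of 0.014 on that scale. Whether the lists differ was not tested. Nfix and Nfib, factors that promote astrocyte formation and that neurons express too, had log2 ratios of -0.15 and 0.12. Their means in overexpression and control cortex were 7529 and 8333 for Nfix and 4704 and 4331 for Nfib. Zbtb20 had a log2 ratio of 0.25, with p = 0.527 in the authors' deposited table. Sox9, the nuclear marker of astrocytes, had recovered values of 535, 624 and 514 in control libraries, against 490, 714 and 544 with Nex-Cre, and the groups overlapped.

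Reactive astrocyte genes, 35 in all, had 16 members higher and 19 lower, with a median of -0.01. Stat3, a factor that drives reactive change, averaged 978 in overexpression against 953 in control cortex, and Vim, an intermediate filament gene, 672 and 633. The ratio of Gfap to Vim per kb of exon was 4.60 in overexpression against 4.82 in control cortex. Lcn2 and Cxcl10, induced strongly in inflamed brain, were low in both groups, with means of 6.00 and 6.60 for Lcn2 and 1.13 and 1.10 for Cxcl10, both named after their values were seen. Connexins and pannexins of other cells, with their anchor, had 4 of 11 members higher, with a median of -0.06. The anchor gene Tjp1 averaged 2410 in overexpression against 2468 in control cortex, and Panx2 1433 and 1637. Of 18 relatives of the 10 genes, 9 were higher, 8 lower and 1, Lgsn, listed at 0 in both groups, with a median of 0.01. Aldoa and the neurofilament gene Nefl were the highest of these, and Nefl averaged 5884 in overexpression against 5857 in control cortex.

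**Figure D3:**
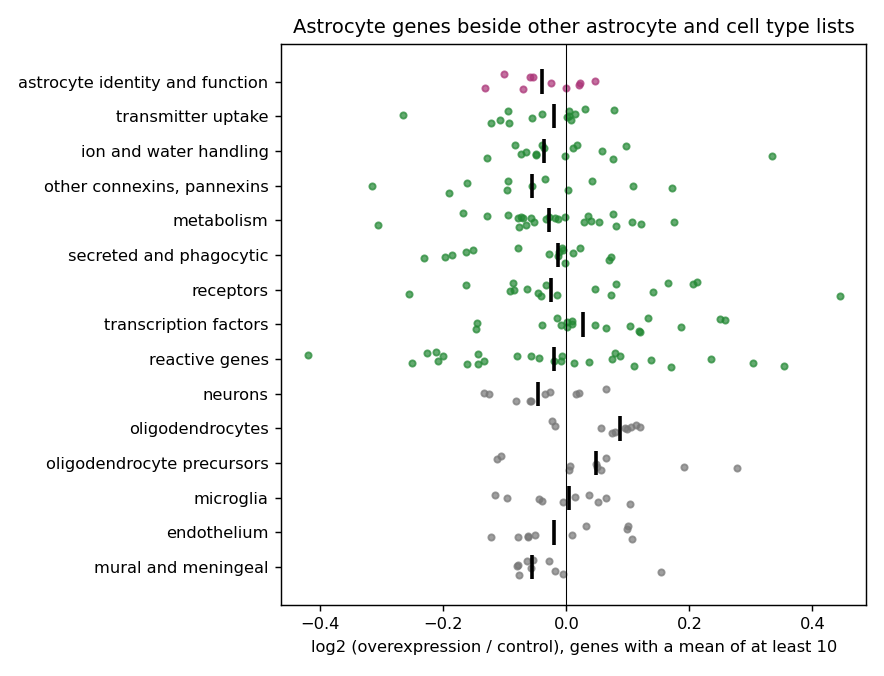
Log2 ratio of overexpression over control for genes averaging 10 or more, by list, with the 10 astrocyte genes in purple, further lists in green and lists of other cell types in grey; black bars are medians. Medians run from -0.06 to 0.09, with oligodendrocyte genes highest.

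Library values were recovered for 47 genes of the astrocyte lists outside the reactive list, Gjb6 included, and the plot of library values shows 14 with a mean of at least 400. Deviations from the mean over 6 libraries were taken on the log2 scale for the 43 of them with a mean of at least 100. The median deviation was 0.06 in control A, 0.01 in control B and -0.09 in control C, and -0.08 in overexpression A, -0.01 in overexpression B and 0.04 in overexpression C. Over all 5992 recovered genes of that level it lay between -0.01 and 0.03. In this set, libraries of both groups stood on either side of 0. For 10 recovered reactive genes of that level the medians were 0.04, 0.17 and 0.04 in control A, B and C, all above 0. In overexpression A, B and C they were -0.19, -0.09 and 0.11. These medians leave out Vim, Serpina3n, Fkbp5 and Stat3, reactive genes of that level whose overexpression libraries were not recovered. By group means their log2 ratios were 0.09, 0.17, 0.14 and 0.04, all higher in overexpression cortex. The medians of the 10 reactive genes thus do not describe the whole reactive list. Serpina3n and Fkbp5 were added with the results already known. Slc39a12, a zinc transporter gene, was highest in library C of both groups, at 772 in control and 816 in overexpression cortex, while its other 4 values lay between 453 and 544.

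**Figure D4:**
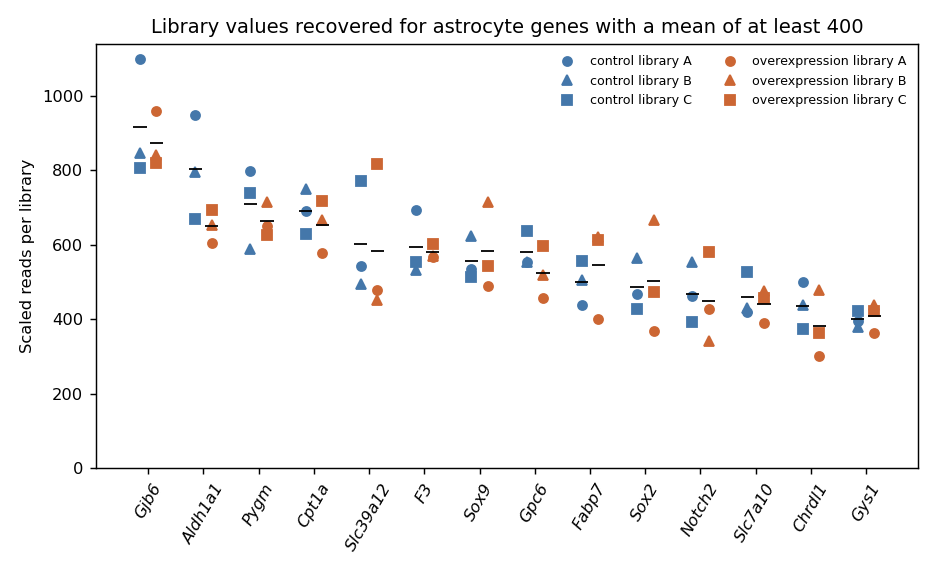
Scaled reads in each recovered library (symbols A, B and C; blue control, orange overexpression) with group means as bars, for Gjb6 and 13 further astrocyte genes with a mean of at least 400. In each of the 14 genes shown the groups overlap.

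The pattern of Gjb6 over the 6 libraries was compared with that of other recovered genes by Pearson's r of log2 values, as a description. The genes most like it were Zfx (r = 0.989), Frmd6 (r = 0.982) and Derl1 (r = 0.981), all highest in control A. With 6 libraries, 11 of 5991 genes had an r above 0.95. The median r was 0.12 for 42 astrocyte genes and -0.03 over all 5991 genes. The libraries share depth and tissue composition across genes, so such values do not stand for independent samples.

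Lists of markers of other cells had median log2 ratios between -0.06 and 0.09, of both signs. The median log2 ratio was -0.05 for 10 neuronal genes, 0.09 for 10 oligodendrocyte genes, 0.05 for 10 precursor genes, 0.004 for 10 microglial genes, -0.02 for 10 endothelial genes and -0.06 for 10 mural and meningeal genes. With column totals the endothelial median was above 0 too, at 0.01. Among 10 ependymal genes 5 were higher and 5 lower, with a median of -0.05 over all 10 and of 0.07 over the 6 averaging 10 or more. Group means lay within 1.2-fold in 4 of the 10 ependymal genes, most of which averaged under 100, and in 10 of 10 astrocyte genes. That share depends on level. It was 57.5% of all tested genes, 97.3% of those averaging at least 100 and 99.4% of those averaging at least 800, the range of the astrocyte genes. The choroid plexus gene Ttr stood at 122 in overexpression against 290 in control cortex, p = 0.449 in the authors' deposited table. Of these 7 lists 0 genes passed the adjusted threshold there, and 0 had p under 0.05 before adjustment, beside 0% and 0.534% of all tested genes. Of the oligodendrocyte genes 8 of 10 were higher, among them the myelin gene Mbp, with a log2 ratio of 0.11, and with column totals 10 of 10 were higher. The summed level of the oligodendrocyte genes was 145032 in overexpression against 135256 in control cortex. Neu4, of the precursor list, had recovered control values of 302, 315 and 320 and overexpression values of 376, 349 and 411. These groups did not overlap, and the adjusted p by limma was 0.999. It was 1 of 4 recovered precursor genes, and in 1 of 5 recovered ependymal genes the groups also did not overlap. Over all recovered genes 6.99% had groups that did not overlap. The summed level of the 10 neuronal genes was 140433 in overexpression against 144656 in control cortex, a log2 ratio of -0.04, and that of the 10 astrocyte genes 123511 and 127854, a log2 ratio of -0.05. The part of cell composition in these ratios was not tested.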

How the data were processed

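Frozen cortex was extracted with Trizol and sequenced from Illumina TruSeq RNA libraries, per the labels' protocols. Per the submitters' processing notes, Bowtie2 2.0.6 and TopHat2 2.0.9 were used. No source used here names the build, annotation, counter or differential test. The table deposited by the authors holds 1 signal value per gene and group, the mean scaled read count. Per the file headers it also holds p-values, raw and adjusted, and log2 fold changes by the authors; the log2 ratios reported were computed here from the group values. The labels do not say that replicates came from separate animals, so the p-values reflect spread that may be technical.

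The 10 genes, the 17 lists (250 genes) and the tests were chosen with earlier results of these data known. Named genes were the 10 and, in each list, the 2 genes with the highest mean. Some genes that this rule names, and 1 recovered gene, are not reported here. Symbols came from GENCODE IDs, and 1 gene, Pc, was matched by a RefSeq synonym. Reads per library were recovered by searching for whole reads that give a group mean within its rounding, without limit up to a mean of 100, within 2-fold of the mean up to 400 and within 1.5-fold above. In overexpression means from 700 to 1000, where Gjb6 lies, 19.2% had 1 solution. In simulated data of that range 28.9% had 1 solution, and 97.1% of such solutions were right. The simulated spread was taken from recovered genes with means from 200 to 400, so the share right may differ in the real data. In 2185 overexpression genes with a mean from 200 to 400, 1.65% had a library outside 1.5-fold. Recovered values plus 1 were taken to log2 and fitted by limma 3.58.1 (R 4.3.3), its variance trend switched on, over genes averaging 10 or more, with Benjamini-Hochberg adjustment. Its fold changes understate those of low genes. The fit was tested on simulated data with 2-fold changes in 200 genes, which does not bear on differences as small as those of the 10 genes.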

Additional observations from a re-analysis of the deposited data

How the results depend on the processing

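By the authors' p-values, the count of genes called stayed at 0 when adjusted over genes with a mean of at least 10 or 100. That outcome was fixed beforehand, since the smallest unadjusted p of the 10 genes in the authors' deposited table was 0.264. By limma on the 1 recovered gene, the count stayed at 0 with a pseudocount of 0.5, a lower filter, no variance trend or any 1 library left out. The median log2 ratio of the 10 genes was -0.0397, -0.0222 when centred on genes with a mean of at least 100 and -0.00792 with column totals. The limma difference of Gjb6 ran from -0.146 to 0.0765 with 1 library left out, and reversed only without control A. The wider 2-fold search window, chosen after seeing the data, gave no library values for Gjb6. Over all recovered genes the number with an unadjusted limma p under 0.05 was 236, between 154 without control A and 425 without control C, 466 with the lower filter and 374 with no variance trend. No paired analysis was possible because recovered libraries carry no replicate number. Count models on the recovered reads, planned as alternatives, were not run. For 9 of the 10 genes no spread between libraries could be measured.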
